A study of Mus musculus with 10 samples.

Results

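The interferon regulatory factor (IRF) family was followed in stimulated mouse B cells that carry or lack intact Irf4 alleles. The members were 8 genes, Irf1, Irf2, Irf3, Irf4, Irf5, Irf7, Irf8 and Irf9, and all 14 probe sets that the platform annotation assigns to them were taken, out of 34945 probe sets with 1 gene symbol (8 of 18193 genes). Irf1, Irf2, Irf7 and Irf9 had 1 probe set each, Irf4, Irf5 and Irf8 had 2 each, and Irf3 had 4.

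The cells were splenic B lymphocytes of mice of 12 weeks on a C57BL/6 background, either irf4+/+ or irf4-/- littermates, with 5 arrays per genotype. Non-B cells had been removed magnetically, and both genotypes then received anti-CD40 antibody plus IL-4 (20 ng/ml) over 3 days of culture, so every sample was stimulated and none was left resting. How the Irf4 alleles were disrupted is not given in the labels. Separate mice or cultures behind the 5 samples are not stated either, and the p-values therefore reflect sample-to-sample spread that could be technical. The values are MAS5 signals of 1-colour Affymetrix arrays, in arbitrary linear units.

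IRF proteins share an amino-terminal DNA-binding domain that reads GAAA cores, and the family takes its name from the control of interferon genes and of interferon-stimulated genes. IRF4 and its closest relative IRF8 bind DNA weakly alone and are recruited by partners, PU.1 or Spi-B at composite Ets-IRF elements and BATF with a JUN protein at AP-1-IRF elements. In B cells IRF4 is induced by activation and is known for its role in class switching and plasma cell formation. IRF1, IRF2, IRF7 and IRF9 serve the interferon response, and IRF3, IRF5 and IRF7 are activated by kinases below innate immune receptors.

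Several Irf genes are themselves targets of STAT, NF-kB and IRF factors, so a promoter window is shown for each member in which motif letters were found, with Irf4 for comparison. The windows are from RefSeq, build GRCm38.p6, and run from 250 bases before to 50 bases after an annotated start site, written 5′ to 3′ on the gene's strand. Capitals mark matches to any motif searched.
Irf1, chr11:53769764-53770063, plus strand: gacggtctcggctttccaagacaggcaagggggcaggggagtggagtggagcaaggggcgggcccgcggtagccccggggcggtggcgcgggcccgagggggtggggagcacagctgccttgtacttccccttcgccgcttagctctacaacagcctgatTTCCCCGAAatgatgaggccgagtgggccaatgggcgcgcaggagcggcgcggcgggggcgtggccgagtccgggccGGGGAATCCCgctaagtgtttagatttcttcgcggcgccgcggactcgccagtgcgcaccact
Irf2, chr8:46739495-46739794, plus strand: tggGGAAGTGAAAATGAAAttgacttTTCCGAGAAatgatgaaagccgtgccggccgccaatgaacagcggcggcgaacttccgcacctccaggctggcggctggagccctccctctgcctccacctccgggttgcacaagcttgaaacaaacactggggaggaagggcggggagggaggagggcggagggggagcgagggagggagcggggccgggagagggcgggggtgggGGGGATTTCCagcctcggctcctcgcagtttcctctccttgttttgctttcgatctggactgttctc
Irf8, chr8:120736108-120736407, plus strand: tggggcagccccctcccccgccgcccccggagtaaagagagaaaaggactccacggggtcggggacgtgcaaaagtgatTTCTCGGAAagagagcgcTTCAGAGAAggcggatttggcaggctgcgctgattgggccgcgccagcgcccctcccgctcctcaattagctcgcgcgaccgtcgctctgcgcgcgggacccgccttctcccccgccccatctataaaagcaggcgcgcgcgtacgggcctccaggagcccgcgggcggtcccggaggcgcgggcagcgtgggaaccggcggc
Irf9, chr14:55603735-55604034, plus strand: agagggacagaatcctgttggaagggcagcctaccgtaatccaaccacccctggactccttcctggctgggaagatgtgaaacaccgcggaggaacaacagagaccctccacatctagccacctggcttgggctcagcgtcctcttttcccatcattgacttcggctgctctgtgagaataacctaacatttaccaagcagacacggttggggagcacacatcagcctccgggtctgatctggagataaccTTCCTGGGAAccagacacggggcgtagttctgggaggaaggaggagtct
Irf4, chr13:30748983-30749282, plus strand: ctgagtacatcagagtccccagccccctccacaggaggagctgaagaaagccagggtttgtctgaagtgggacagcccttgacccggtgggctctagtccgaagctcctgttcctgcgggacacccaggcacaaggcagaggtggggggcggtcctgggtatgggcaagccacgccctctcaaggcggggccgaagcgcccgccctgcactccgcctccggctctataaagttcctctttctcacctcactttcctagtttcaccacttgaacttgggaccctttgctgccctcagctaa
All 8 members had a window, and Irf1, Irf8 and Irf9 had 2, which gave 11 windows. The motifs were searched on both strands. The interferon-stimulated response element was taken as GAAA, 2 free bases and GAAA, the Ets-IRF element as GGAA, 2 free bases and GAAA, and the AP-1-IRF element as GAAA joined to TGANTCA. The STAT element GAS was taken as TTC, 3 free bases and GAA, the STAT6 spacing has 4 free bases in the same place, and kappaB was its consensus. The first Irf1 window held the GAS letters TTCCCCGAA from -90 to -82 and a kappaB match from -13 to -4. The Irf2 window held overlapping Ets-IRF and interferon response letters, GGAAGTGAAA from -247 to -238 and GAAAATGAAA from -241 to -232. It also had GAS letters from -224 to -216 and a kappaB match from -17 to -8. The first Irf8 window held 2 GAS matches, TTCTCGGAA from -171 to -163 and TTCAGAGAA from -153 to -145, and the first Irf9 window held the STAT6 spacing from 2 to 11 after the start. None of these letters was found in the windows of Irf3, Irf4, Irf5 and Irf7 or in the second windows of Irf1, Irf8 and Irf9. Of all 32851 windows of this length, 8.3% held the GAS letters, 6.95% the STAT6 spacing, 4.51% the kappaB consensus, 3.44% the interferon response element, 2.72% the Ets-IRF element and 0.125% the AP-1-IRF element. A match is a run of letters and not a measured binding site.

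**Figure D1:**
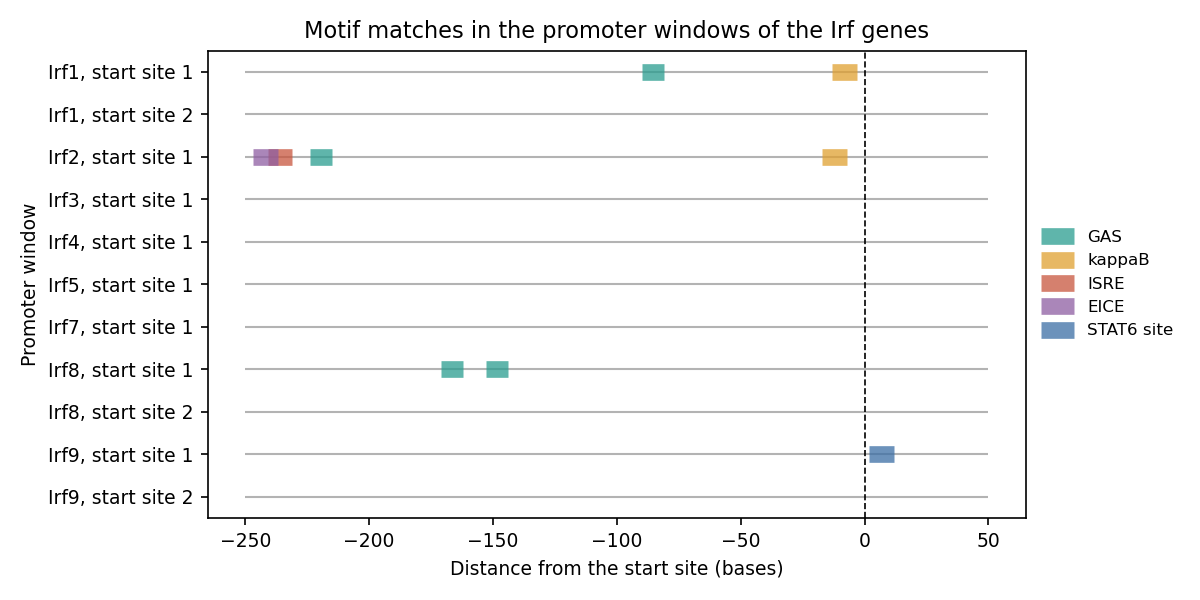
Motif matches in the 11 promoter windows of the 8 Irf genes. The horizontal axis is the distance from the annotated start site in bases (dashed line), each row is a window and coloured blocks are matches. Matches lie in the first windows of Irf1, Irf2, Irf8 and Irf9.

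Fold changes were tested in limma on log2(signal + 7.9) over 22533 probe sets, with p-values adjusted over all of them by the Benjamini-Hochberg method, and a probe set was called at an adjusted p under 0.05. Every fold or log2 fold change below is Irf4-/- against Irf4+/+ on that scale, which understates the change of dim probe sets. All 14 Irf probe sets passed the filter on low signal (a mean of at least 25.1 over the 10 arrays), Irf3 1438721_a_at only through its Irf4-/- samples. Of the 14, 8 were called higher in Irf4-/- samples, where 21.1% of all tested probe sets were, and 1 was called lower, where 21.4% were. In both directions together 9 of 14 were called against 42.5% of all tested. Of all calls 49.7% were higher, and 40.6% with the arrays scaled to a common median, so the balance of higher and lower calls depends on the scaling. The groups did not overlap for 8 of the 14 probe sets, against 31.5% of all. At least 2-fold rises were called for 5 probe sets, from Irf1, Irf7, Irf8 and Irf9, against 4.74% of all. The median log2 fold change was 0.37 over the 14 and 0.01 over all tested probe sets.

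**Figure D2:**
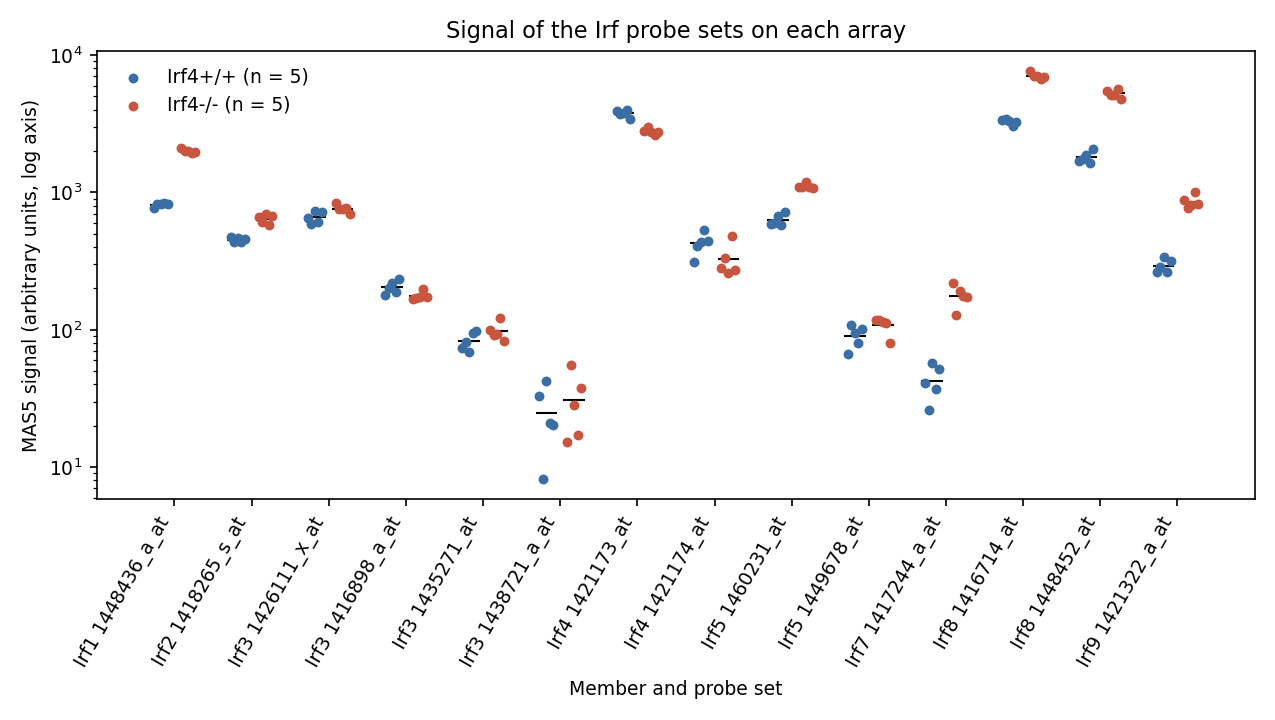
MAS5 signal (arbitrary units, log axis) of the 14 Irf probe sets on each of the 5 Irf4+/+ (blue) and 5 Irf4-/- (red) arrays, with group means as black lines. Irf1, Irf2, Irf7, Irf8, Irf9 and Irf5 1460231_at lie higher on every Irf4-/- array, and Irf4 1421173_at lies lower.

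Irf4, the disrupted gene, still gave signal in Irf4-/- samples, on both of its probe sets. On 1421173_at the Irf4+/+ arrays read 3898.9, 3745.1, 3757.6, 3978.4 and 3426.4 in replicates 1 to 5. The Irf4-/- arrays read 2821.4, 2988.7, 2765.9, 2638.2 and 2747.9. Each Irf4-/- value lay below each Irf4+/+ value, so the mean fell from 3761 ± 211 to 2792 ± 128 (SD, n = 5), or to 74.2%. This is -0.43 on the log2 scale (SE 0.0547, adjusted p = 7.43e-06, 95% interval -0.54 to -0.31), and 14.8% of all tested probe sets fell by more.

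The other Irf4 probe set, 1421174_at, read 309.6, 408.3, 436.7, 529.1 and 445.4 in Irf4+/+ and 281.6, 330.6, 260.3, 481.3 and 271.4 in Irf4-/- samples. The groups overlapped, because Irf4-/- replicate 4 was as high as the upper Irf4+/+ arrays and Irf4+/+ replicate 1 was low. Its log2 fold change of -0.40 (SE 0.156, adjusted p = 0.0502) was not called, though it was without Irf4+/+ replicate 1 (-0.51, adjusted p = 0.0121) or without Irf4-/- replicate 4 (-0.55, adjusted p = 0.00228). It was called under 8 of 20 other settings, among them median scaling (adjusted p = 0.0103), quantile normalization (adjusted p = 0.0292) and the replicate number as a block (adjusted p = 0.00807). Without any 1 array the adjusted p ran from 0.00228 to 0.134. Between the probe sets of Irf4 the changes differed by 0.03 (SE 0.174, adjusted p = 0.946), which was not called. Which part of the transcript each one reads is named in neither the labels nor the platform annotation. The signal therefore does not check the genotype, and it says nothing about IRF4 protein. In such bulk samples, fewer cells with a transcript and less of it per cell cannot be told apart.

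Irf8, which encodes the closest relative of IRF4 and is expressed in B cells, dendritic cells and macrophages, moved the other way. On 1416714_at the Irf4+/+ arrays read 3357.1, 3420.2, 3309.9, 3045.5 and 3257.2, and the Irf4-/- arrays 7642.7, 7099.6, 6990.8, 6723.8 and 6979.4. On 1448452_at they read 1690.8, 1764.2, 1859.4, 1641.7 and 2073.1, and 5523.6, 5164.4, 5118.1, 5653.3 and 4822.3. On both probe sets every Irf4-/- array lay above every Irf4+/+ array by a wide margin. The first rose 2.16-fold (log2 fold change 1.11, SE 0.0514, adjusted p = 4.32e-11), from 3278 ± 143 to 7087 ± 340. The second rose 2.91-fold (log2 fold change 1.54, SE 0.067, adjusted p = 1.94e-11), from 1806 ± 170 to 5256 ± 334 (SD, n = 5). Only 3.91% and 2.02% of all tested probe sets had a higher log2 fold change.

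Both Irf8 probe sets agreed in direction but not in size. The log2 ratio of 1448452_at to 1416714_at was between -0.99 and -0.65 on the Irf4+/+ arrays and between -0.53 and -0.25 on the Irf4-/- arrays. It was higher on every Irf4-/- array, by 0.43 on average (SE 0.0724, adjusted p = 0.0017 in limma over 10282 such pairs of probe sets of 1 gene). Of all such pairs 9.79% were called. Among the 6 pairs of the Irf genes 3 were called, one each of Irf3, Irf5 and Irf8.

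IRF1 is an activator induced by interferon gamma and drives genes of antigen processing and guanylate-binding proteins. Its probe set 1448436_a_at read 771.8, 825.9, 822.9, 834.4 and 817.6 on the Irf4+/+ arrays and 2105.2, 2005.1, 1987.3, 1934.6 and 1981.1 on the Irf4-/- arrays. The groups were narrow and far apart. Irf1 rose 2.44-fold, from 815 ± 24.6 to 2003 ± 63.0 (SD, n = 5; log2 fold change 1.29, SE 0.0522, adjusted p = 8.46e-12). The coefficient of variation was 3.03% and 3.14% in the genotypes, where the median over all tested probe sets was 13.5% and 12.8%.

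IRF2 binds the same elements as IRF1 and mostly opposes it, and Irf2 rose by a smaller amount. Its probe set 1418265_s_at read 474.6, 438.1, 464.0, 433.0 and 461.3 in Irf4+/+ and 664.4, 612.7, 692.0, 584.0 and 668.4 in Irf4-/- samples. There was no overlap between the genotypes. The mean went from 454 ± 17.8 to 644 ± 44.4, a 1.41-fold rise (log2 fold change 0.50, SE 0.0678, adjusted p = 1.59e-05), and 14.6% of all tested probe sets had a higher log2 fold change. The suffix of this probe set marks probes that can bind more than 1 transcript.

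IRF9 is the DNA-binding subunit of the STAT-containing complex that type I interferon activates. Irf9 on 1421322_a_at read 262.9, 286.1, 338.0, 262.5 and 317.9 in Irf4+/+ and 877.4, 773.1, 812.4, 1008.8 and 818.9 in Irf4-/- samples. Each Irf4-/- array was above each Irf4+/+ array. Irf9 rose 2.88-fold, from 293 ± 33.6 to 858 ± 92.1 (SD, n = 5; log2 fold change 1.52, SE 0.0903, adjusted p = 8.22e-10).

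IRF7 is induced by that complex and drives interferon alpha genes, and its transcript was dim in Irf4+/+ cells. Irf7 on 1417244_a_at read 40.9, 25.9, 57.0, 37.0 and 52.1 in Irf4+/+ and 218.2, 127.3, 192.7, 176.3 and 172.7 in Irf4-/- samples. The lowest Irf4-/- array, replicate 2, still read above the highest Irf4+/+ array. Irf7 rose 3.71-fold (log2 fold change 1.89, SE 0.185, adjusted p = 3.72e-07; 95% interval of the fold 2.83 to 4.88), and 1.26% of all tested probe sets had a higher log2 fold change. The size depends on the pseudocount because the Irf4+/+ mean was 42.6 ± 12.4. The log2 fold change was 2.06 with a pseudocount of 1 and 1.49 with 32.

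IRF5 acts below Toll-like receptors 7 and 9 in B cells and macrophages. On 1460231_at Irf5 read 590.6, 596.3, 674.0, 578.9 and 724.6 in Irf4+/+ and 1100.4, 1096.7, 1184.6, 1100.6 and 1085.1 in Irf4-/- samples, with no overlap. It rose 1.76-fold, from 633 ± 63.5 to 1113 ± 40.3 (log2 fold change 0.81, SE 0.0702, adjusted p = 8.53e-08). The dimmer probe set 1449678_at read 66.7, 109.1, 95.1, 79.6 and 101.8 in Irf4+/+ and 118.4, 118.3, 113.5, 111.2 and 80.5 in Irf4-/- samples. There the groups overlapped through Irf4-/- replicate 5, and the log2 fold change of 0.25 (SE 0.152, adjusted p = 0.213) was not called. The change of the dimmer probe set was smaller by 0.56 on the log2 scale (SE 0.144, adjusted p = 0.0239). That difference missed the threshold without Irf4+/+ replicate 2 (adjusted p = 0.0563) and without Irf4-/- replicate 3 (adjusted p = 0.0528) or 5 (adjusted p = 0.0566).

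IRF3 is made constitutively and is activated by phosphorylation, and its 4 probe sets did not give 1 direction. On 1426111_x_at, whose suffix marks probes that can bind unrelated transcripts, the Irf4+/+ arrays read 655.7, 588.5, 728.0, 607.0 and 724.8. The Irf4-/- arrays read 834.3, 752.0, 756.5, 767.5 and 700.7, and overlapped the Irf4+/+ range through replicate 5. This was a 1.15-fold rise (log2 fold change 0.21, SE 0.0753, adjusted p = 0.0358), the smallest call among the 14. The call was lost with the arrays scaled to a common median (0.13, adjusted p = 0.258). It was also lost with the replicate number as a block (adjusted p = 0.0512), without the variance trend (adjusted p = 0.068), and without Irf4+/+ replicate 1, 2 or 4 or Irf4-/- replicate 1, 2, 3 or 4. Without any 1 array the adjusted p ran from 0.0197 to 0.0949.

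The other Irf3 probe sets were not called. On 1416898_a_at the Irf4+/+ arrays read 178.4 to 232.6 (median 200.1) and the Irf4-/- arrays 166.2 to 196.9 (median 172.4), which overlap, and the log2 difference was -0.20 (SE 0.0975, adjusted p = 0.117). Under median scaling (-0.27, adjusted p = 0.0463) and quantile normalization (-0.25, adjusted p = 0.0395) it was called lower. Probe sets 1435271_at and 1438721_a_at had log2 fold changes of 0.21 (SE 0.142, adjusted p = 0.252) and 0.23 (SE 0.359, adjusted p = 0.651). The second of these was near the floor of the array, at 24.98 ± 13.1 in Irf4+/+, just below the filter, and 30.6 ± 16.3 in Irf4-/- samples. It passed the filter only through the Irf4-/- samples and could be called only higher, so its sign is no result. The changes of 1416898_a_at and 1426111_x_at differed by -0.41 (SE 0.11, adjusted p = 0.0326). This was lost with the replicate number as a block (adjusted p = 0.0536) and without Irf4+/+ replicate 2, 3, 4 or 5 or Irf4-/- replicate 1, 2 or 3, and its adjusted p lay between 0.0268 and 0.0798 when single arrays were dropped. The direction of Irf3 is therefore uncertain.

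**Figure D3:**
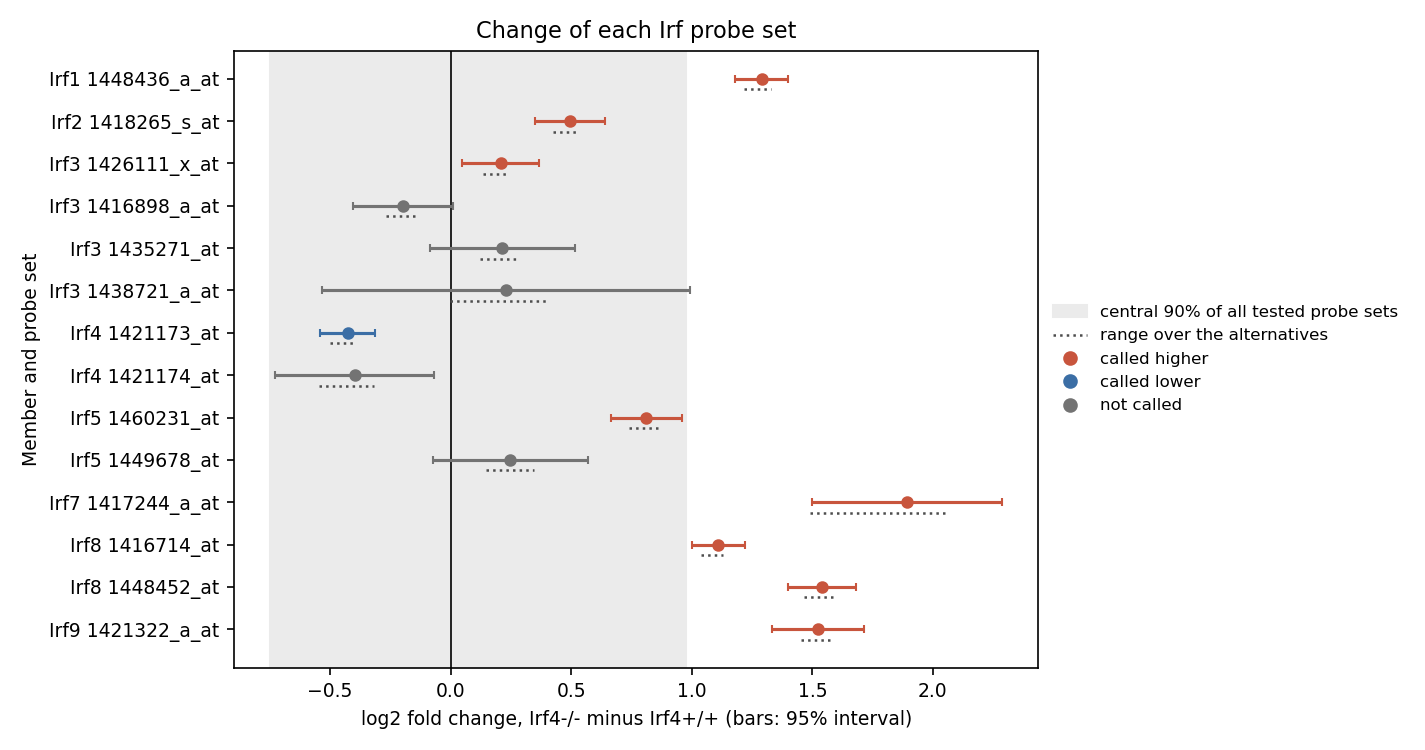
log2 fold change of each Irf probe set, Irf4-/- minus Irf4+/+, with 95% intervals from limma (red called higher, blue called lower, grey not called) and dotted lines for the range over the alternative settings. The grey band holds the central 90% of all tested probe sets, from -0.75 to 0.98, and Irf1, Irf7, Irf8 and Irf9 lie to its right.

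**Figure D4:**
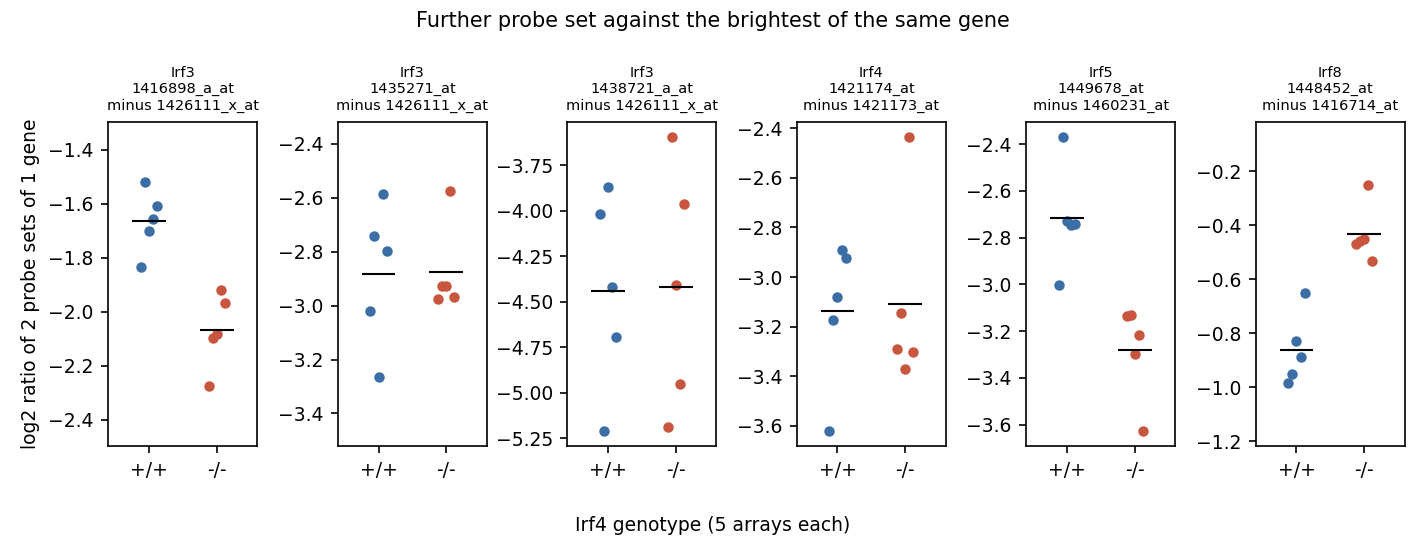
log2 ratio of each further probe set to the brightest probe set of the same gene, on the 5 Irf4+/+ (blue) and 5 Irf4-/- (red) arrays, with group means as black lines and a vertical range of its own for each pair. The Irf8 ratio is higher on every Irf4-/- array, and the first Irf3 pair and the Irf5 pair are lower on every Irf4-/- array.

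Among the Irf4-/- arrays, replicates 1 and 4 were each the highest on 5 of the 14 probe sets, and replicate 5 was the highest on 0 and the lowest on 5. Among the Irf4+/+ arrays, replicates 3 and 5 were each the highest on 4, and replicate 4 was the lowest on 5. Of the 9 called probe sets 8 kept their call and direction under every other setting they were tested in (21, or 20 for Irf8 1448452_at), and Irf3 1426111_x_at was the exception. Array medians were 37.2 to 42.7 in Irf4+/+ and 39.9 to 45.0 in Irf4-/- samples. The brightest 18S ribosomal RNA control read 58.1 to 104.9 and 126.2 to 289.0, so it also separated the genotypes, and its part in the Irf values was not tested.

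Genes with profiles like those of 3 members were named by the smallest root mean square difference over the 10 arrays, with log2 values taken relative to each gene's own Irf4+/+ mean, by the brightest probe set and without predicted genes. This is a description, and the arrays share the genotype split. Nearest to Irf4 1421173_at were Rnmt, the messenger RNA cap methyltransferase (0.0424), the deubiquitinase Usp1 (0.0454) and the endoplasmic reticulum protein Sec63 (0.0475), with log2 fold changes of -0.45, -0.44 and -0.44. Nearest to Irf8 1416714_at were the lysosomal thiol reductase Ifi30 (0.0645), the chromatin factor Supt16 (0.0676) and Arhgap25 (0.0685), with log2 fold changes of 1.13, 1.15 and 1.11. Nearest to Irf7 were the quiescence factor Klf2 (0.215), the antiviral membrane protein Ifitm3 (0.233) and Ubash3b (0.239), at 2.02, 1.72 and 1.96. The cause of the larger distances for Irf7 was not tested.

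The cell mixture was checked beside these values, where 22.9% of all tested genes, each by its brightest probe set, were called higher and 23.5% lower. A gene whose mean was below the filter in 1 genotype could be called in 1 direction only, so counts are also given without such genes. B cell markers were higher in Irf4-/- samples, with 6 of 6 tested called higher, among them Cd79b (5978 ± 286 to 13249 ± 820) and Ms4a1 (9007 ± 755 to 14549 ± 761). All of the 6 were bright except Pax5 (147 ± 29.0 to 327 ± 58.3). Natural killer markers were called higher for 8 of 8 tested, or 5 of 5 without Ncr1, Klrd1 and Nkg7, which were below the filter in Irf4+/+ samples, with a summed level of 1279 to 1555 in Irf4+/+ and 11477 to 15925 in Irf4-/- samples over the 9 genes with a probe set, most of it from Gzma and Gzmb. Macrophage markers were called higher for 5 of 9 tested, or 3 of 7 without Clec4d and Msr1, with sums of 506.9 to 615.9 and 1388 to 1586. Adgre1 went from 153 ± 21.0 to 611 ± 30.6, Csf1r was not called (0.29 on the log2 scale, adjusted p = 0.0832), and Cd14, Itgam and Marco were dim in both genotypes. Macrophages also express Irf5, Irf7 and Irf8, and the part of such cells in the Irf values was not tested.

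The conventional dendritic cell list summed to 1008 to 1168 in Irf4+/+ and 725 to 794 in Irf4-/- samples, with 2 of 4 tested members higher and 2 lower. Flt3 fell from 417 ± 29.7 to 53.2 ± 15.6 and Batf3 from 297 ± 29.5 to 191 ± 43.2. On its brightest probe set Zbtb46 rose from 291 ± 16.3 to 382 ± 31.9, and a further probe set had the opposite sign. Itgax rose from 33.3 ± 22.8 to 75.2 ± 17.3, and Xcr1 was dim. The plasmacytoid list summed to 1939 to 2284 and 1911 to 2077, with 1 of 5 higher and 3 lower, and its defining gene Siglech was dim. T cell markers summed to 185.6 to 291.7 and 178.4 to 310.4, with 0 of 3 tested higher and 1 lower, and Cd3d, Cd3e and Cd3g were dim. Granulocyte markers summed to 93.3 to 182.7 and 456.7 to 776.5. Of 4 tested, S100a8 (18.3 ± 7.87 and 267 ± 67.2) and S100a9 (6.56 ± 5.02 and 203 ± 62.6) passed the filter only through Irf4-/- samples, and the other 2 were not called. The erythroid and platelet list summed to 67.2 to 129.5 and 39.8 to 143.0, and its 1 tested gene, Pf4, was not called. In the plasma cell list 4 of 5 tested were lower and 0 higher (3 of 4 without Jchain, which was below the filter in Irf4-/- samples). The sums overlapped, at 20047 to 21749 and 17906 to 21361, and came mostly from Xbp1 and Mzb1. Sdc1 fell from 130 ± 25.9 to 59.4 ± 11.5 and Prdm1 from 138 ± 24.0 to 73.2 ± 15.2. Xbp1 fell only 1.15-fold on its brightest probe set (adjusted p = 0.00518), and a further probe set had the opposite sign. Jchain read 981 ± 90.9 in Irf4+/+ and 21.9 ± 10.1 in Irf4-/- samples, and Mzb1 was not called.

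Partners and cofactors of IRF proteins moved mostly upward. Of 24 tested genes 15 were called higher, 5 lower and 4 were not called, against the same 22.9% and 23.5% of all tested genes. The list's median log2 fold change was 0.39, against 0.00 over all genes. The Ets partners that recruit IRF4 and IRF8 both rose. Spib rose 2.42-fold, from 2683 ± 184 to 6488 ± 356 (adjusted p = 3.95e-11), and Spi1, which encodes PU.1, rose 1.47-fold, from 240 ± 66.5 to 348 ± 54.3 (adjusted p = 0.0095; SD, n = 5).

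The AP-1 partners did not all share a direction. Batf rose 1.55-fold, from 2657 ± 169 to 4109 ± 221 (adjusted p = 1.64e-07), and Jun 2.26-fold, from 606 ± 49.8 to 1376 ± 67.4 (adjusted p = 5.62e-10). Jund rose as well on its brightest probe set (1.47-fold, adjusted p = 0.000259), and its other probe set moved with the opposite sign. Batf3 fell 1.55-fold (adjusted p = 0.000512) and Junb 1.39-fold (adjusted p = 0.0105). The calcium-regulated factor Nfatc1 rose 1.73-fold (adjusted p = 3.69e-08). Fkbp4, an immunophilin known to bind IRF4 and reduce its DNA binding, fell 2.12-fold, from 1071 ± 157 to 498 ± 41.4 (adjusted p = 6.48e-08). The IRF2-binding corepressors also split. Irf2bp2 rose 1.37-fold (adjusted p = 0.00032), Irf2bp1 fell 1.41-fold (adjusted p = 0.00838), and Irf2bpl was not called (-0.18 on the log2 scale, adjusted p = 0.241), with a further probe set of the opposite sign. Stat2, the partner of IRF9, rose 2.17-fold, from 133 ± 23.3 to 297 ± 35.3 (adjusted p = 1.54e-06).

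Receptors and kinases that act upstream of IRF proteins were called higher for 14 of 25 tested genes and lower for 3, with 8 not called and a median of 0.44. Of all tested genes 22.9% were called higher and 23.5% lower. The RNA sensors Ifih1 and Rigi rose 6.00-fold (80.6 ± 20.8 to 512 ± 25.7, adjusted p = 1.73e-10) and 2.95-fold (260 ± 16.5 to 784 ± 51.0, adjusted p = 4.32e-11). The interferon gamma receptor chain Ifngr2 rose 2.06-fold on its brightest probe set (adjusted p = 5.57e-09), and its other probe set moved with the opposite sign. Unc93b1, which carries endosomal Toll-like receptors, rose 1.97-fold (adjusted p = 8.43e-09). Ifih1 and Rigi are themselves interferon-stimulated genes.

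Most interferon genes were dim. Of 18 ligands in the list 9 had a probe set and 3 passed the filter. Ifng read 11.1 ± 6.30 in Irf4+/+ and 102 ± 19.1 in Irf4-/- samples, in which natural killer markers were also higher. It passed the filter only through the Irf4-/- samples, so no fold or test is given. Ifnb1 (34.3 ± 13.9 and 27.2 ± 16.5, adjusted p = 0.482) and Ifna1 (43.3 ± 20.2 and 33.8 ± 14.8, adjusted p = 0.539) were not called, with log2 fold changes of -0.33 and -0.30. Dim signals such as these do not show whether interferon was made earlier in the culture.

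Most known targets of the interferon-response members were called higher, against 22.9% of all tested genes called higher and 23.5% called lower. Of 16 tested targets of the IRF9 complex and of IRF7, 14 were called higher, 0 lower and 2 were not called, with a median of 1.18. Of these 16, 5 (Ifit1, Oas3, Oasl2, Cxcl10 and Rtp4) were below the filter in Irf4+/+ samples and could be called only higher. Among the other 11, 10 were called higher, with a median of 1.11. Oas1a, an oligoadenylate synthetase, rose 12.7-fold, from 150 ± 21.5 to 1975 ± 161 (adjusted p = 4.52e-14), and the nucleic acid sensor Zbp1 5.93-fold (adjusted p = 1.13e-10). Rtp4 read 9.56 ± 7.08 and 449 ± 23.2, and Oas3 15.96 ± 8.65 and 244 ± 28.7, in Irf4+/+ and Irf4-/- samples. Of 15 tested targets of IRF1, 14 were called higher, 0 lower and 1 was not called, with a median of 0.99 (13 of 14 and 0.94 without Il15, which was below the filter in Irf4+/+ samples). The guanylate-binding proteins Gbp2 and Gbp3 rose 9.49-fold (669 ± 85.9 to 6387 ± 402, adjusted p = 3.01e-14) and 5.09-fold (adjusted p = 2.98e-10). The immunoproteasome subunit Psmb10 rose 2.76-fold (adjusted p = 3.78e-11) and the MHC class II activator Ciita 2.58-fold (adjusted p = 3.91e-10). These lists hold genes that several IRF and STAT proteins share, and they were chosen with results of these data known, so their direction is a description.

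Genes named as targets of IRF4 or IRF8 in B cells went both ways, with 8 of 16 tested called higher, 7 lower and 1 not called, and a median of 0.38. Of all tested genes 22.9% were called higher and 23.5% lower. The receptor Cd40 rose 3.52-fold, from 839 ± 31.8 to 2977 ± 86.4 (adjusted p = 9.50e-14), and Spib and Ciita rose, as given above. Myc, a growth regulator, fell 2.19-fold, from 2637 ± 88.7 to 1205 ± 93.6 (adjusted p = 2.00e-10). In the list on turnover and modification of IRF proteins 4 of 9 tested genes were called higher, 2 lower and 3 were not called, with a median of 0.11, and the share called lower (22.2%) was near the 23.5% of all genes. The feedback inhibitor Socs1 rose 3.54-fold, from 167 ± 26.8 to 607 ± 49.7 (adjusted p = 4.76e-10). Trim21, a ubiquitin ligase that acts on several IRF proteins, rose 1.62-fold (adjusted p = 8.40e-08). The ligase Cbl rose 1.37-fold (adjusted p = 6.34e-06) and the deubiquitinase Usp7 1.28-fold (adjusted p = 1.09e-05). Natural killer and macrophage markers and the 18S control moved with the genotype in the same samples, as given above, and their part in these lists was not tested.

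**Figure D5:**
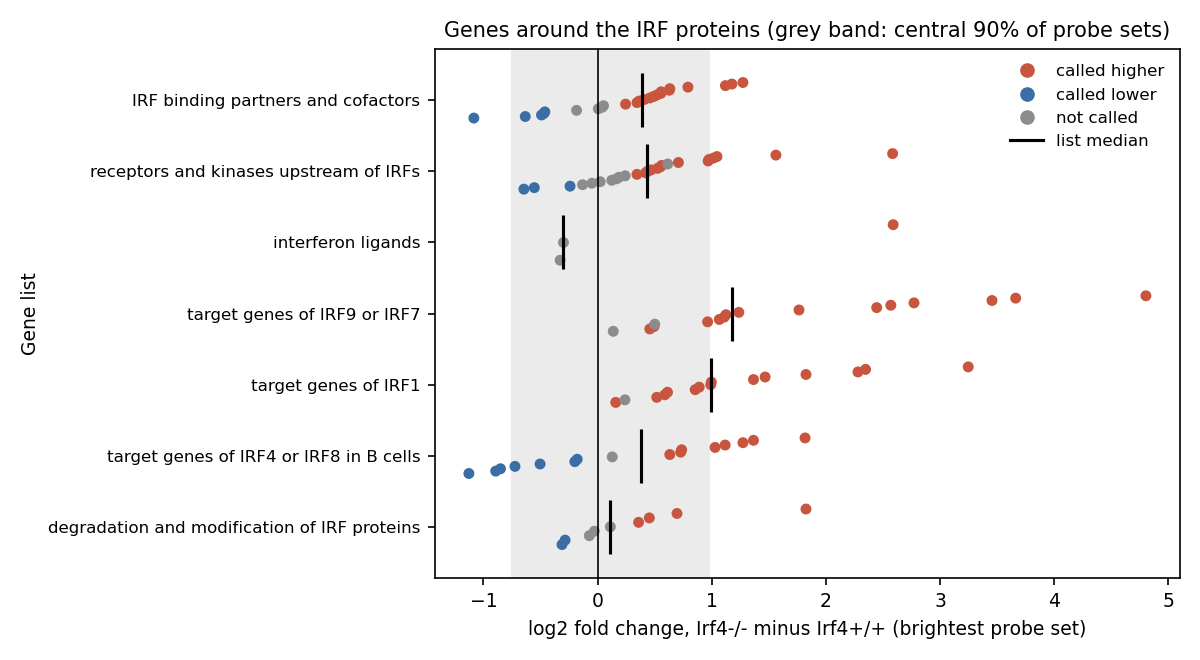
log2 fold change of the tested genes of 7 lists around the IRF proteins, Irf4-/- minus Irf4+/+, each gene by its brightest probe set (red called higher, blue called lower, grey not called) with the list median as a black line. The grey band holds the central 90% of all tested probe sets, and the medians of both interferon-response target lists, 1.18 and 0.99, lie beyond its upper edge of 0.98 (1.11 and 0.94 without genes below the filter in Irf4+/+ samples).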

How the data were processed

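RNA of cultured B cells was measured on 1 array per sample. The deposited values are linear MAS5 intensity values (1 for each probe set on each array), per the submitters' processing notes. The software version is not stated there. The mean after trimming 2% at each end was 250.0 on every array, so no further scaling was applied. The number of arrays limits the precision. The table held 45101 rows, 64 of them controls.

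Gene symbols were updated through gene IDs in a RefSeq table of GRCm38.p6, and probe sets with 1 symbol and a mean at or above the 40th percentile were tested. Signals were taken as log2(signal + 7.9), the 20th percentile of all values, and fitted in limma 3.58.1 (lmFit, eBayes with trend) under R 4.3.3 with genotype as the only term. Differences between probe sets of 1 gene were fitted over all genes in the same way. On simulated data for 22533 probe sets the fit recovered 58% of 50 probe sets changed 1.5-fold, 80% of 100 changed 2-fold and 98% of 50 changed 4-fold, with 6 false calls. Far fewer probe sets were changed there than the 42.5% called in the data, so these shares do not give the recovery in the data.

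The members, lists and tests were chosen with earlier results of these data known. Named genes are all Irf probe sets, the 3 nearest profiles of 3 members, and up to 4 genes of each list with the smallest p, plus Irf2bp1, Irf2bp2, Irf2bpl, Spi1, Spib, Batf and Stat2. Some items are not reported here. Cell type markers, genes below the filter in 1 genotype, Jund, Junb and Batf3 were picked for naming with their values known. Alternatives varied the pseudocount, the filter, the scaling and the variance model, added array weights or the replicate number as a block, took 1 probe set per gene, or left out each array.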

Additional observations from a re-analysis of the deposited data

Results flagged for a closer look

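Within each genotype, the highest or lowest of 5 arrays stood further from the others than Dixon's 95% limit allows in 4 of 28 groups checked (14 probe sets in 2 genotypes), where chance gives about 1 in 20. Irf1 1448436_a_at read 771.8 on Irf4+/+ replicate 1, against 817.6 to 834.4 on the other Irf4+/+ arrays. Irf3 1416898_a_at read 196.9 on Irf4-/- replicate 4, against 166.2 to 173.5 on the others. Irf5 1460231_at read 1184.6 on Irf4-/- replicate 3, against 1085.1 to 1100.6. Irf5 1449678_at read 80.5 on Irf4-/- replicate 5, against 111.2 to 118.4. The 4 values come from 4 different arrays.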

How the results depend on the processing

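Without any 1 array, 8867 to 9423 probe sets, 8 to 9 Irf probe sets and 709 to 900 pairs of probe sets of 1 gene were called, against 9568, 9 and 1007 with all arrays. No pairing by replicate number was seen over all tested probe sets. Same-numbered arrays had correlations of -0.03 to 0.03 between their deviations from the group means, and 0 of 10 arrays correlated best with their own number. Such correlations cannot show that the numbers carry no pairing. With the replicate number as a replicate block 9458 probe sets, 9 Irf probe sets and 872 pairs were called. The block ended the call of Irf3 1426111_x_at (0.21, adjusted p = 0.0512) and gave one to Irf4 1421174_at (-0.40, adjusted p = 0.00807). Irf4 1421174_at was also called with a pseudocount of 32, a filter at the 60th percentile, median scaling, quantile normalization and array weights. Signs turned only among values that were not called. The pair difference of Irf3 1435271_at was -0.028 with a pseudocount of 32, -0.10 under quantile normalization, -0.045 with array weights and -0.088 to 0.082 without 1 array. That of Irf3 1438721_a_at was -0.070 with a pseudocount of 32, -0.029 under quantile normalization and -0.17 to 0.21 without 1 array. That of Irf4 1421174_at was -0.056 with array weights and -0.14 to 0.095 without 1 array. The log2 fold change of Irf3 1438721_a_at ran from -0.0023 to 0.41 without 1 array. The cause was not tested. At the 60th percentile filter, and without Irf4-/- replicate 2, 1438721_a_at was too dim to test. Its ranges without 1 array therefore cover 9 omissions. The scalings moved the median log2 fold change of all probe sets from 0.01 to -0.06 and -0.03. Dim probe sets limit what can be seen for Irf7 and for these Irf3 and Irf5 probe sets.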
